A study of Homo sapiens with 3 samples.

Results

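Olfactory receptor (OR) gene promoters were followed through a promoter interactome of human cardiomyocytes. An OR gene was taken as any protein-coding gene whose symbol is OR with a family number, a subfamily letter or letters and a member number. Its promoter fragment was a captured HindIII restriction fragment that holds an annotated transcript start of the gene. Of 399 annotated OR genes, 237 (59.4%) had such a fragment in at least 1 call, against 77.0% of all protein-coding genes. These genes lay on 231 of the 19075 promoter fragments, on 15 chromosomes. Their 4102 contacts were part of 200587 contacts in all, where a contact is an unordered pair of fragments called in at least 1 replicate.

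The cells were hESC-CMs, cardiomyocytes differentiated from the single human embryonic stem cell line WA09 (H9), and the purity of the cultures was checked by the study with MYH7 and TNNT2. Promoter capture Hi-C (PCHi-C) was done on 3 biological replicates of 1 untreated condition, so there are no groups to compare. In this assay chromatin is crosslinked, cut with HindIII and ligated, and ligation products that hold a promoter are enriched by hybridisation. A PCHi-C interaction is reported with a CHiCAGO score, which measures how far its read count stands above that expected for the distance and the 2 fragments, and the deposited calls have scores of 5 or more. The deposited files hold calls without read counts, so no depth per replicate or per contact is given here, and neither expression nor cell identity can be read from them.

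OR genes encode G protein-coupled receptors that detect odorants. In olfactory sensory neurons each cell transcribes a single OR allele, from clusters that are otherwise packed in silent heterochromatin, and the silent clusters and OR enhancers of different chromosomes gather in the nucleus with the factors LHX2, LDB1 and EBF. Class I receptors, of families 51, 52, 55 and 56, are the fish-like group of a chromosome 11 cluster, and class II receptors are the larger, terrestrial group. Most OR genes are silent outside the nose, although a few, such as OR51E1, have been described in heart.

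Sequences of 3 short partner fragments are printed here, each chosen by its own rule. The first sequence below, inside GRIN3A at chr9:104481828-104482013, is 1 of 33 partners contacted by all 8 OR13 promoter fragments of chromosome 9, and had the highest mean score among the 3 of these that are at most 300 bp long. The second, at chr11:50038981-50039232 between OR4C12 and OR4A5, had the highest mean score of any OR contact called in all 3 replicates, but not on the merged replicates. The third, at chr6:137488981-137489161 inside IL22RA2, was the partner on another chromosome shared by most OR promoters. All are whole HindIII fragments of the plus strand in GRCh37, and capitals mark what is left of the HindIII sites (AAGCTT) at both ends.
GRIN3A partner of OR13 promoters: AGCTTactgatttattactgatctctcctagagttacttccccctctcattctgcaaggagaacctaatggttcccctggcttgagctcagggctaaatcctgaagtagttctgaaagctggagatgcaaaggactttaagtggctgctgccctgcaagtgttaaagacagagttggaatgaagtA
OR4C5 partner: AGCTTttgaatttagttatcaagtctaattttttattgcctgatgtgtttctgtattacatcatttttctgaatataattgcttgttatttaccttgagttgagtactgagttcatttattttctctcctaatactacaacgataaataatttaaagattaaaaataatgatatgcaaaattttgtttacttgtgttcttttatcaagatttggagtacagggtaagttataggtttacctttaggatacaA
IL22RA2 partner of chromosome 11 OR promoters: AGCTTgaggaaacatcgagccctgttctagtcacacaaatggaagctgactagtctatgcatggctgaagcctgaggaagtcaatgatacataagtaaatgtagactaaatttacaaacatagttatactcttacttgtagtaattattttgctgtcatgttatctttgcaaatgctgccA
Their GC contents ranged from 26.2% to 45.2%. OR promoter fragments themselves were poor in GC, with a median of 38.5% (interquartile range 35.8 to 41.3) against 48.3% in the 13805 other protein-coding promoter fragments.

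In the calls of each replicate OR promoters contacted far more distant DNA than other promoters did, and few of these contacts recurred. In replicates 1, 2 and 3 there were 1896, 2000 and 2026 OR contacts, of 205, 208 and 203 promoter fragments. Of the 4102 in the union, 604 recurred in all 3 replicates, 612 were in 2 of them and 2886 in 1 only. The share in all 3 was 14.7% (95% Wilson interval 13.7 to 15.8, which covers counting error only), against 25.1% over all protein-coding promoters. Among the 673 other promoter fragments in or within 1 Mb of an OR cluster it was 24.8%, and among the 144 of zinc finger (ZNF) genes on chromosome 19, another large tandem family, it was 8.67%. Without the 8 OR13 fragments described below the OR share was 9.47%. Counting a partner within 5 kb as the same raised the OR share to 37.3%, and to 25.9% without OR13, against 49.9% for other promoters. At least 1 contact in all 3 replicates was held by 96 of the 231 OR fragments.

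The median distance between OR promoters and same-chromosome partners was 2848, 2866 and 2903 kb in replicates 1 to 3. For other protein-coding promoters the replicates ranged from 488 to 517 kb, so the values did not overlap. The difference was 2373 kb ± 12.5 (SD, n = 3 replicates), with an exact two-sided sign-flip permutation p = 0.25, which is the smallest that 3 replicates can give. Against the promoters near OR clusters the difference was 2399 kb ± 18.4 (SD, n = 3). In the union, 24.0% of same-chromosome OR contacts spanned 1 Mb or less, against 61.6% for other promoters, and 20.0% spanned over 10 Mb, against 8.16%. The OR contacts include 400 across the centromere gap of chromosome 11, described below, which are counted at their nominal GRCh37 distance. The distance depended in part on 1 cluster: without the 8 OR13 fragments described below the replicate medians were 1508, 1718 and 2153 kb, still above those of other promoters. In the union, where contacts of a single replicate weigh more, the median was 2973 kb with and 3890 kb without them. The calls on the merged replicates gave a different picture. There the median was 707 kb for OR promoters against 360 kb for other promoters, and without the OR13 cluster it was 332 kb, with 86.2% of OR contacts and 85.7% of other contacts within 1 Mb. The longer distances of OR promoters outside the OR13 cluster were therefore found in the calls of single replicates and not in the merged calls.

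**Figure D1:**
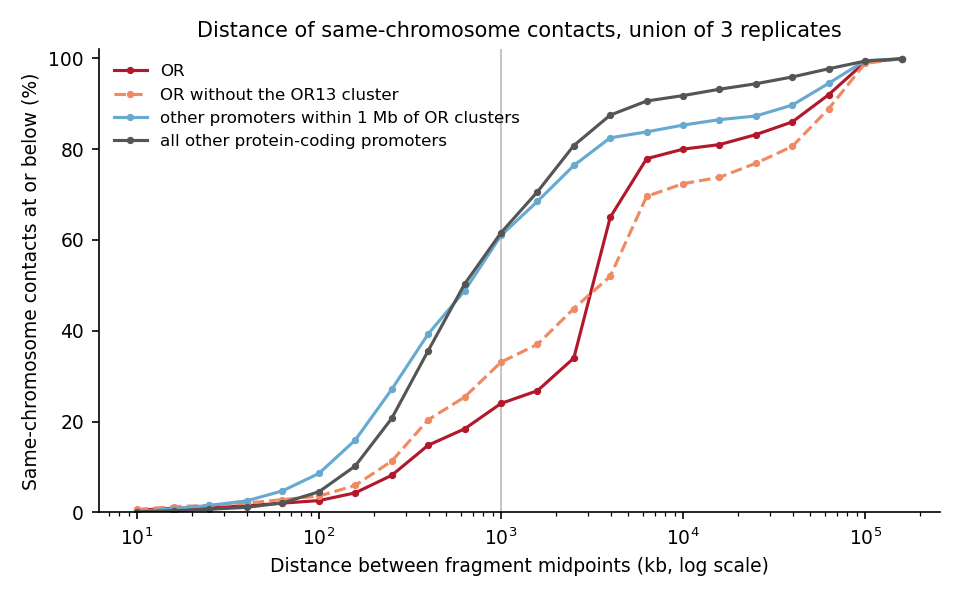
Cumulative share of same-chromosome contacts (vertical axis, %) by distance between fragment midpoints (horizontal axis, kb, log scale) in the union of the 3 replicates, with the grey line at 1 Mb. The OR curves lie below both curves of other promoters at 1 Mb (24.0% with and 33.1% without the OR13 cluster, against 61.0% and 61.6%).

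The number of contacts per promoter was uneven. OR fragments had medians of 3, 4 and 4 contacts in replicates 1 to 3, and other promoters had 4 in each. The means were higher for OR fragments, 10.0 against 7.48 over the replicates, a difference of 2.55 ± 0.434 (SD, n = 3; exact sign-flip permutation p = 0.25). That direction rested on the OR13 cluster. Without its 8 fragments the OR means were 6.86, 7.03 and 7.25 in replicates 1 to 3, each below the 7.54, 7.44 and 7.47 of other promoters. In the union 16 OR fragments had 1 contact and 21 had 50 or more, up to 212. The 10 leading fragments held 1461 contacts, 35.6% of the total. OR13D1, OR13C3, OR4C5, OR13C5, OR4K2, OR13C8, OR13C2, OR4C15, OR13C9 and OR13F1 made up these 10, and 7 of them were of the OR13 cluster.

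**Figure D2:**
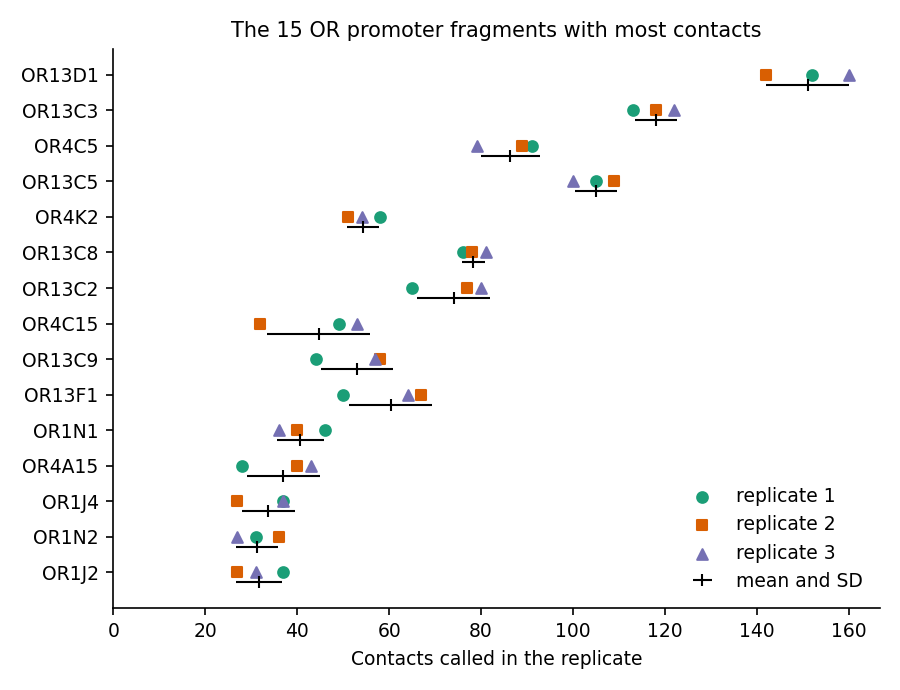
Contacts called in each replicate (horizontal axis) for the 15 OR promoter fragments with most contacts in the union, with coloured symbols for replicates and black bars for the mean ± SD. OR13D1 had 152, 142 and 160 contacts and OR13C3 had 113, 118 and 122, above every other OR fragment in each replicate.

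OR genes sit in tandem clusters. Joining OR genes less than 1 Mb apart gave 29 clusters with 389 genes, and 24 of them had an OR promoter fragment with a call. The OR13 cluster on chromosome 9, the OR4A16 to OR5AK2 cluster on chromosome 11 and the OR1J1 to OR1K1 cluster on chromosome 9 held 2371 contacts, 57.8% of all. They differed in recurrence, with 29.2%, 3.89% and 11.8% of contacts called in all 3 replicates. The largest cluster by fragments, OR52B4 to OR10A3 on chromosome 11, holds the class I genes and had 286 contacts from 44 fragments, 17.5% of them in all 3.

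**Figure D3:**
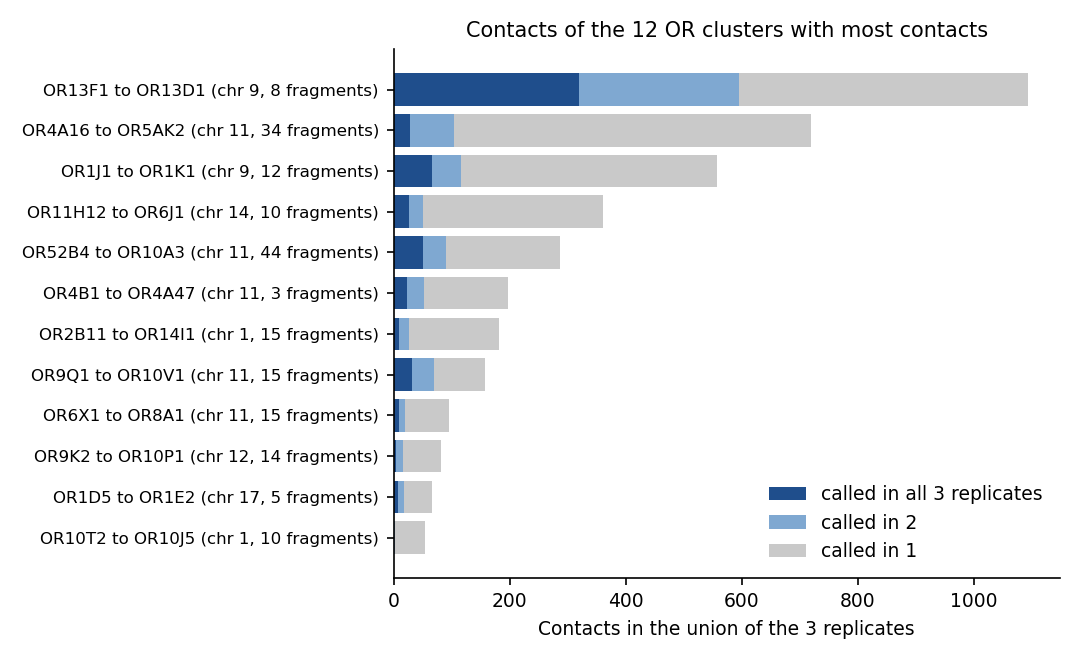
Contacts in the union of the 3 replicates (horizontal axis) of the 12 OR clusters with most contacts, stacked by the number of replicates that called them. The OR13F1 to OR13D1 bar reaches 1093 contacts with 319 in all 3 replicates, while the OR4A16 to OR5AK2 bar reaches 720 with 28.

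The OR13 cluster spans chr9:107266544-107457743 and its 8 genes, OR13F1, OR13C4, OR13C3, OR13C8, OR13C5, OR13C2, OR13C9 and OR13D1, all had a promoter fragment with calls. It had 622, 683 and 702 contacts in replicates 1 to 3. Of the 1093 in the union, 1087 reached 1 stretch of 1918 kb, chr9:103361964-105279932, on the centromere side of the cluster, and all 319 contacts called in all 3 replicates were there. No OR13 contact stayed inside the cluster, none was on the telomere side, and 2 fell in the 1987 kb between cluster and stretch.

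The stretch holds 9 protein-coding genes. They include GRIN3A, a subunit of NMDA-type glutamate receptors, PPP3R2, a testis form of the calcineurin regulatory subunit, BAAT, which conjugates bile acids, and the ubiquitin ligase RNF20. OR13 promoters contacted 300 partner fragments there, 2014 to 4083 kb away. Of these partners 212 were shared by at least 2 OR13 promoters and 133 by at least 4. Neighbouring promoters contacted the stretch too: 7 of the 9 other protein-coding promoter fragments in or within 1 Mb of the cluster did so, with 249 contacts.

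Within the cluster the numbers in the stretch were not equal. OR13D1, at the telomere end, had 151, 141 and 160 contacts there in replicates 1 to 3, 97 of them in all 3 replicates. OR13C3 had 113, 118 and 122, and OR13C5 had 105, 108 and 100, so these 2 did not overlap with each other or with OR13D1. OR13C4, which lies between OR13F1 and OR13C3, had 17, 34 and 38, the lowest of the 8 in each replicate, and 3 in all 3. OR13C3 is 1591 bp long, OR13D1 5977 bp and OR13C4 10375 bp. In the union the 2 longest of the 8 fragments, OR13F1 and OR13C4, had the fewest contacts with the stretch. The shortest, OR13C9, came next. The part of fragment length in these numbers was not tested.

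The strongest OR13 contact joined OR13D1 to chr9:104355435-104359032, the PPP3R2 promoter fragment inside GRIN3A, 3102 kb away. Its scores were 56.91, 53.87 and 51.87. All 8 OR13 promoters contacted this fragment, 7 of them in every replicate, and the mean scores of the other 7 ran from 9.38 for OR13C4 to 25.8 for OR13C9. The GRIN3A promoter fragment, chr9:104496716-104501962, was also contacted by all 8, with OR13D1 at 25.83, 30.91 and 32.62. For the 186 bp GRIN3A fragment printed above OR13D1 scored 26.56, 35.87 and 36.90. OR13D1 also reached the RNF20 promoter fragment, with 23.28, 31.44 and 25.44. Each of these 4 contacts scored above 20 in all 3 replicates.

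**Figure D4:**
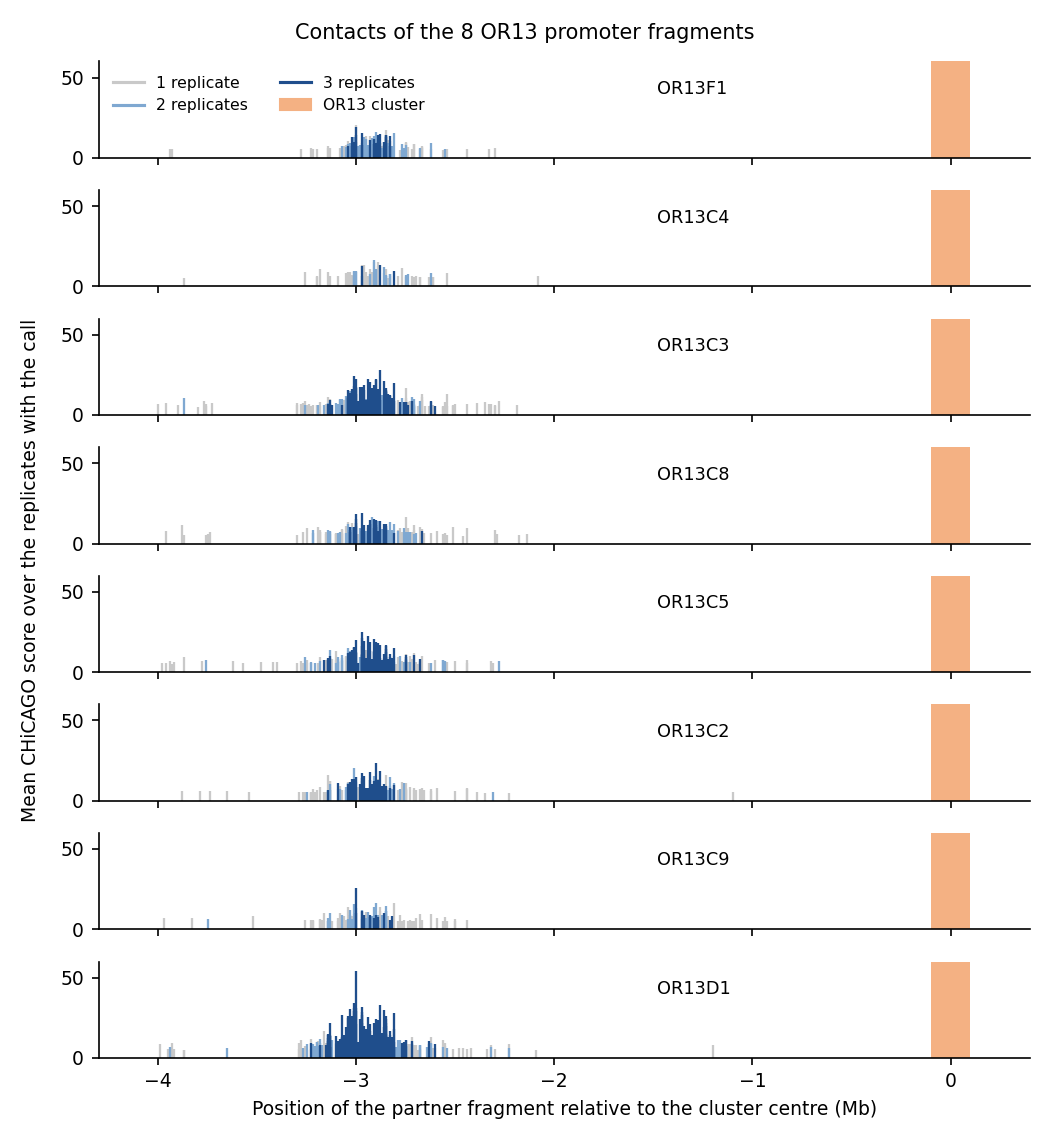
Mean CHiCAGO score (vertical axis) of each contact of the 8 OR13 promoter fragments by the position of the partner relative to the cluster centre (horizontal axis, Mb, negative towards the centromere), coloured by the number of replicates with the call. Contacts pile up near -3 Mb in all 8 panels, the cluster itself (orange) holds none, and the tallest line is the OR13D1 contact with a mean score of 54.2; 4 contacts outside the plotted range or on other chromosomes are not drawn.

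RefSeq promoter sequences (250 bases before to 50 after the gene start, GRCh38.p14) were found for 201 of the 237 OR genes, in 209 entries. That of OR13D1, chr9:104694268-104694567 on the plus strand of GRCh38.p14, is printed because its fragment had the most contacts.
OR13D1 promoter: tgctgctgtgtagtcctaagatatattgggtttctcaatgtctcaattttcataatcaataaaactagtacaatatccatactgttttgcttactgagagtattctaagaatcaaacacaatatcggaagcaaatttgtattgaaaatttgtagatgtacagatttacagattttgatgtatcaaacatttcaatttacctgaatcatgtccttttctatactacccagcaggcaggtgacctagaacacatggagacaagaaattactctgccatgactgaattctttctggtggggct
Its GC content was 34.7%. The homeodomain core TAATTA, the motif of LHX2-like factors, which reads the same on both strands, was in 45 of the 209 OR promoters (21.5%) and in 4.68% of the 34792 promoters of other genes, whose median GC was 58.7% against 37.3%. The EBF motif, searched as TCCC and GGGA with any 2 bases between them and palindromic as well, was in 0.957% and 1.21%. These matches do not overlap each other, and none of the 8 OR13 promoters held either motif, so there are no capitals in the sequence.

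The OR4A16 to OR5AK2 cluster, chr11:55110677-56757318, lies just beyond the centromere of chromosome 11, with 36 called genes on 34 promoter fragments. In GRCh37 coordinates its contacts turned back across the centromere, and the placement in other genome builds was not examined. In replicates 1 to 3, 152, 143 and 169 contacts of the cluster reached chr11:51191015-51576264, which GRCh37 places on the other arm. This 385 kb stretch holds the OR genes OR4A5, OR4A8 and OR4C46. The contacts with it came to 400 in the union, from 24 OR promoters to 189 partner fragments, and 5 were in all 3 replicates (1.25%). None of the 18 other promoter fragments near the cluster contacted the stretch. Their distances from the centromere were not compared with those of the OR promoters.

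Promoters nearest the centromere had most of these contacts. OR4C15 had 46, 26 and 51 in replicates 1 to 3, OR4A15 had 26, 37 and 40, and OR4C16 had 24, 13 and 11. By contrast each promoter beyond OR5D18 had 4 or fewer in the union. The nominal distances were 3677 to 5046 kb, but of the 3534 kb between the stretch and the cluster 3100 kb (87.7%) are unassembled bases in GRCh37, so most of the nominal distance is gap. The part of the gap in these calls was not tested. One partner, chr11:51366027-51366870, was shared by 13 OR promoters.

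OR4C5, at chr11:48386729-48389031 and in GRCh37 on the same side of the centromere as that stretch, had 91, 89 and 79 contacts in replicates 1 to 3, 24 of them in all 3. Its contact with the printed fragment 1651 kb away scored 223.65, 209.25 and 33.07. The replicates therefore spanned a wide range, and replicate 3 was far below replicates 1 and 2. On the merged replicates it scored 33.8, below the 68.5 of OR4C5 with chr11:50032153-50038980, which had 33.77, 46.78 and 60.53 in the replicates. By mean score chr11:50026276-50032152 came next, at 31.99, 37.34 and 37.11, and then chr11:50024026-50026275, at 43.81, 33.79 and 28.24. These 3 partners, in the order given, have copies 4.85, 132 and 10.7 kb from OR4C5 that are 93.9%, 89.9% and 91.8% identical. No copy of the printed fragment was found within 1 Mb of OR4C5. At its length of 252 bp the search could miss a copy of such identity, so the printed fragment may have one too. The part of copies in the scores was not tested.

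The OR1J1 to OR1K1 cluster, chr9:125239237-125563352, had 12 promoter fragments and 2 kinds of contact. Local contacts, within chr9:124803627-125582471, numbered 151, 131 and 119 in replicates 1 to 3, 224 in the union, and 66 were in all 3 (29.5%). Among them OR1J1 contacted the OR5C1 promoter fragment with scores of 27.27, 18.75 and 20.96 and the OR1K1 fragment with 16.22, 18.38 and 20.11. Far contacts, with chr9:117521445-123295596, where TNC, PAPPA, ASTN2, TLR4 and BRINP1 lie, numbered 93, 98 and 96 and came to 282 in the union. None of these was in all 3 replicates, although each of the 12 promoters had some.

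Contacts between OR promoters stayed on their own chromosome. There were 78, 89 and 90 in replicates 1 to 3 and 162 in the union, with a median distance of 321 kb. They made up 3.95% of OR contacts, while 0.152% of the contacts of other protein-coding promoters reached an OR promoter. Of the 162, 139 joined fragments of the same cluster and 23 fragments of another cluster on the same chromosome. None joined 2 chromosomes, in any replicate. Only 150 OR contacts in the union reached another chromosome, and OR promoter fragments were 231 of the 144398 fragments in the calls. Few contacts between OR promoters of different chromosomes could therefore be seen. The 26 contacts between OR promoters called in all 3 replicates were all within 1 cluster. Examples are OR8K5 with OR5T3 (10.83, 15.35 and 13.60) and OR1G1 with OR1E1 (7.66, 10.51 and 11.66).

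Taking any partner fragment with an OR gene or OR pseudogene in it, 400 OR contacts (9.75%, Wilson interval 8.88 to 10.7) had such a partner, against 3.26% for other promoters near OR clusters. Inside 1 cluster lay 692 of 3952 same-chromosome contacts (17.5%). Contacts from 1 OR cluster to another came to 56, 56 and 71 in the replicates, 170 in the union (4.18% of the 4070 contacts of clustered OR fragments), with a median span of 50.1 Mb. Among promoters near OR clusters the share was 1.23%. Of the 170, 3 were in all 3 replicates and 160 in 1, so single pairs rarely recurred. They spanned over 10 Mb in 115 cases. On the merged calls only 0.131% of same-chromosome OR contacts spanned that far, against 0.372% for other promoters. The share of contacts between clusters was not compared on the merged calls. The pairs of clusters with most were on chromosome 11, OR4A16 to OR5AK2 with OR6X1 to OR8A1 (28 contacts), and on chromosome 1 the 2 clusters OR10T2 to OR10J5 and OR2B11 to OR14I1 shared 18.

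Contacts of OR promoters with other chromosomes recurred in all 3 replicates at 1 place. OR promoters had 56, 65 and 58 in replicates 1 to 3, which is 2.95%, 3.25% and 2.86% of their contacts. The share differed from that of other promoters by 0.263, 0.282 and -0.00544 percentage points in replicates 1 to 3 (exact sign-flip permutation p = 0.50). Without the OR13 cluster the difference was 1.55, 1.97 and 1.51 points. Against the promoters near OR clusters the OR share was higher by 1.46, 1.91 and 1.19 points, and against the ZNF promoters of chromosome 19 the differences were -2.21, -3.04 and -2.73 (exact sign-flip permutation p = 0.25 for each of these 2, the smallest possible). Of 150 in the union, 6 were in all 3 replicates, 17 in 2 and 127 in 1, and 1 partner held an OR gene or pseudogene.

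All 6 recurrent contacts joined the OR4K genes of chromosome 14 to 1 stretch of chromosome 22 between POTEH and OR11H1. OR4K2 with chr22:16346319-16346737 scored 83.99, 50.99 and 37.94, and OR4K2 with chr22:16348049-16350475 scored 37.51, 79.71 and 42.06. The second of these fragments was also contacted by OR4K5 (13.73, 27.36 and 6.42) and by OR4K1 (13.73, 13.29 and 12.30). The 2 remaining were OR4K2 contacts with adjacent fragments of 969 and 380 bp, which scored between 6.86 and 12.43.

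Every one of these 4 chromosome 22 fragments has a near-identical copy on chromosome 14 within 1 Mb of the OR promoter, 96.1% to 99.0% identical. The first 200 bases aligned without a gap between the 419 bp partner and its copy 267 kb from OR4K2 differ at 3 bases, which are in capitals below. The chromosome 22 stretch is chr22:16346334-16346533 and its copy chr14:20078453-20078652, both on the plus strand of GRCh37.
chromosome 22 partner: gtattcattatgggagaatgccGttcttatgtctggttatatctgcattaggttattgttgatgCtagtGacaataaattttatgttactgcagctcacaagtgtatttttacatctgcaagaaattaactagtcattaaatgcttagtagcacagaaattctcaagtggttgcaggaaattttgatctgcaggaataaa
chromosome 14 copy: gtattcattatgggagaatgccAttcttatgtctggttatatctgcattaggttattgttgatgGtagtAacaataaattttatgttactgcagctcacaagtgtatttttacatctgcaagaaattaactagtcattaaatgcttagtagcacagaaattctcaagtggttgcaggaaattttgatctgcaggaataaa
The part of these copies in the calls was not tested. In all, 64 OR contacts, 24 of them between chromosomes, had a partner for which a copy at least 95% identical was found within 1 Mb of the OR fragment. The same chromosome 14 cluster had 48 contacts with chr14:106246834-107258197, a median of 86568 kb away, where 46 immunoglobulin heavy chain variable genes lie, and 1 was in all 3 replicates.

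**Figure D5:**
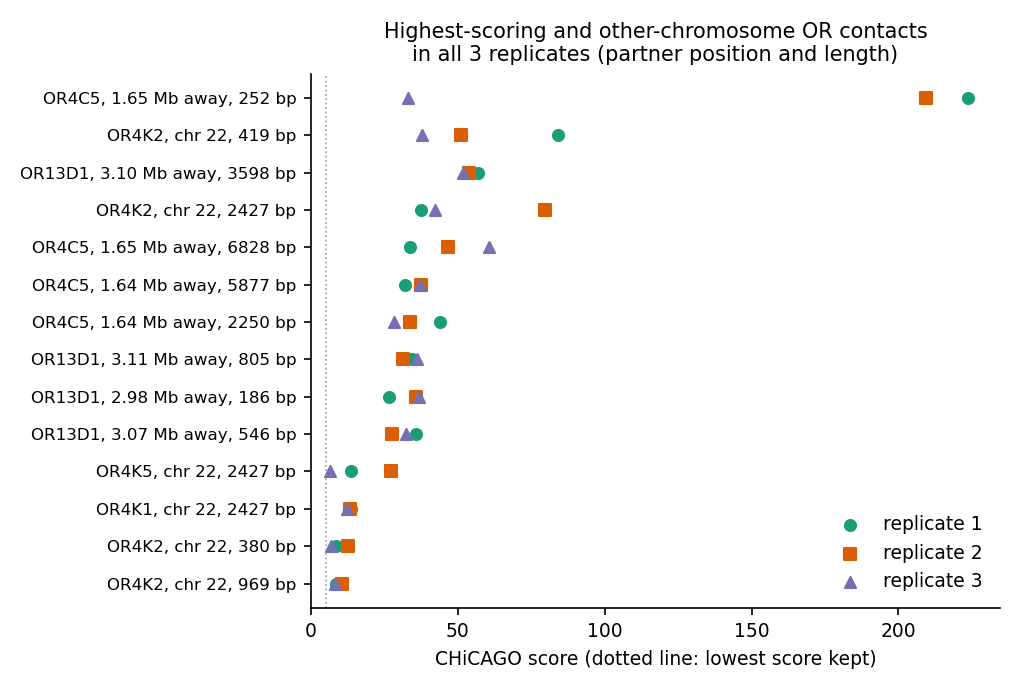
CHiCAGO scores in replicates 1 to 3 (horizontal axis) of the 10 OR contacts with the highest mean score among those called in all 3 replicates, and of the OR contacts with another chromosome called in all 3 (partner position and length at left; dotted line at a score of 5). OR4C5 with its 252 bp partner spreads from 33.07 to 223.65, while OR13D1 with its 3598 bp partner stays between 51.87 and 56.91.

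The IL22RA2 fragment printed above, on chromosome 6, was contacted by 10 OR promoters, all on chromosome 11, and by none of them in all 3 replicates. OR10Q1 scored 34.37 in replicate 1, OR9I1 28.59 in replicate 3, and OR9Q1 23.68 and 17.15 in replicates 2 and 3. OR5B21 scored 28.26 and 7.24 and OR5AN1 10.04 and 21.60, also in replicates 2 and 3. The fragment is not particular to OR genes: 22 promoter fragments contacted it, and all 22 were on chromosome 11. The copy search could not report an alignment as short as this 181 bp fragment. Whether it has a copy near the OR promoters was therefore not tested.

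Contacts with promoters of other protein-coding genes numbered 225 (5.49% of OR contacts), 44 of them in all 3 replicates. OR13 promoters aside, OR5B21 on chromosome 11 had most of those. OR5B21 had 48, 44 and 51 contacts in replicates 1 to 3, 29 in all 3. It reached TIMM10, a mitochondrial import chaperone (19.86, 29.13 and 22.11, 981 kb away), and ZDHHC5, a palmitoyltransferase (18.06, 21.95 and 15.70, 843 kb). Single examples elsewhere were OR2H2 with TRIM27 (11.76, 18.06 and 26.94), OR56A1 with the cholecystokinin receptor gene CCKBR (11.10, 17.47 and 18.80), and OR1K1 with the cyclooxygenase gene PTGS1 (9.20, 7.59 and 10.01). No OR promoter contacted the promoter of any of 20 cardiac genes, among them MYH6, TNNT2, NPPA and GATA4. OR promoters reached 136 of the 13805 other promoter fragments (0.985%), so few contacts with any list of 20 genes could be seen.

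In the calls of the replicates OR classes differed in distance and in their partners. All class I genes with a call lie in 1 cluster, OR52B4 to OR10A3 on chromosome 11, so class cannot be told apart from that locus. Class II clusters varied widely in the union, for example with medians of 351 kb for OR1D5 to OR1E2 and 64214 kb for OR2B11 to OR14I1. The class I median in the union was 668 kb. Class I genes had a call in 38 of 55 (69.1%) and class II genes in 199 of 344 (57.8%). Class I contacts numbered 116, 140 and 139 in replicates 1 to 3, from 37 fragments, with median distances of 356, 367 and 515 kb. For class II the medians were 2875, 2893 and 2922 kb, and the 2 classes did not overlap in any replicate. Of class I contacts 34.0% had a partner with an OR gene or pseudogene, against 8.24% for class II, and 18.9% against 14.4% were in all 3 replicates. Class II includes the OR13 cluster. Without it the class II medians were 1815, 2109 and 2752 kb, still above class I in each replicate, 11.5% of contacts had such a partner and 8.57% were in all 3. The classes were not compared on the merged calls, where OR promoters without that cluster had a median of 332 kb.

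Of 15 OR genes described in tissues outside the nose or with known ligands, 8 had a call (53.3%, against 59.4% of all OR genes) and 1 had a contact in all 3 replicates, against 24.8% of all OR genes. That 1 was OR51E1, a fatty acid receptor, whose promoter fragment also holds the start of OR51D1. The OR51D1/OR51E1 fragment had 17, 14 and 8 contacts in replicates 1 to 3, and its highest score was with chr11:5018306-5018574 in the same cluster, at 20.01, 14.61 and 16.96. OR51E2, its neighbour, had 2, 7 and 4 contacts with none in all 3. OR1D2, OR2AT4, OR2W3, OR5A1, OR11H7, OR1A1 and OR7A17 had no call.

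Among 17 genes of olfactory signalling and OR regulation, 14 had a call (82.4%) and 8 a contact in all 3 replicates, where 77.0% and 43.0% of all protein-coding genes had. EBF1, an OR activator, had 22, 24 and 37 contacts in replicates 1 to 3 and the homeobox gene EMX2 had 29, 26 and 23, so which of them led depended on the replicate. GNAL, the olfactory G protein, ADCY3, its adenylyl cyclase, and LDB1 had 1 contact each in the union. LHX2 had 17, 18 and 19. A single contact of the list was with an OR promoter fragment: CNGA4, a subunit of the olfactory cyclic nucleotide-gated channel, shares its fragment with FHIP1B and contacted OR56A1 in replicates 1 and 2, with scores of 5.05 and 6.20. CNGA2, ANO2 and KDM1A had no call.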

How the data were processed

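PCHi-C was done by the authors on 3 replicates of hESC-CMs. They called interactions with CHiCAGO on each replicate and on the merged replicates, on GRCh37. The deposited CHiCAGO score is a distance-weighted, log-scaled p-value, and the deposited lists hold scores of 5 or more. The deposited lists hold no read counts, so no depth per replicate is given here. Of 144398 fragments in the calls, 144397 had ends at HindIII sites or chromosome ends.

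Promoter fragments were column 1 fragments that hold a GENCODE 44 transcript start on GRCh37. Contacts were unordered pairs in the union of the replicates, and distances ran between fragment midpoints in GRCh37 coordinates. Clusters joined OR genes at most 1 Mb apart, and partner stretches joined partners at most 500 kb apart. The members and the gene lists were chosen with earlier results of these data known. Copies were searched with minimap2 2.31-r1302 and called near-identical at 95% identity over 500 bp or 90% of the fragment. The search drops short alignments, so copies of the shortest partners could not be found. Other tools were Python 3.11.15, pandas 2.3.3, numpy 2.4.6, scipy 1.17.1, matplotlib 3.10.9 and samtools 1.23.1. Comparisons over replicates used exact two-sided sign-flip permutation tests. They measure the spread between 3 cultures of 1 line. The genes named were those of the 10 fragments with most contacts, the 10 highest-scoring contacts in all 3 replicates, the OR13 cluster, recurrent contacts with other chromosomes and the gene lists; OR5B21, the IL22RA2 partner and other single examples were chosen after their values were seen. Scripts were tested on planted contacts. A bait list was not used here, so an OR gene that was not captured and one without a call cannot be told apart. The distances on the merged calls without the OR13 cluster, the other values without that cluster and the 5 kb matching of other promoters were added after seeing the data.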

Additional observations from a re-analysis of the deposited data

Results flagged for a closer look

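On the merged replicates, 1571 contacts of the OR fragments were called, and 256 of these were called in no single replicate. These 256 came from 72 OR fragments, had a median score of 5.55 and a highest score of 8.45, and 254 of them spanned 1 Mb or less. Of the 604 OR contacts in all 3 replicates, 598 were also called on the merged replicates.

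The far stretches differed in this respect. Of the contacts of the OR13 cluster with its stretch, 546 of 1087 were called on the merged replicates. For the OR4A16 to OR5AK2 cluster and the stretch that GRCh37 places across the centromere it was 41 of 400. For the OR1J1 to OR1K1 cluster with its far stretch it was 1 of 282. Among the 150 OR contacts with other chromosomes 16 were called on the merged replicates.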

How the results depend on the processing

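The values follow the score limit, the number of replicates and the OR13 cluster. With scores of at least 7 and at least 10 there were 1827 and 790 OR contacts, 17.4% and 20.5% in all 3 replicates, medians of 3.00 and 2.00 contacts per fragment, 4.21% and 5.70% joining different chromosomes, 11.9% and 8.59% of same-chromosome contacts inside a cluster, 6.95% and 5.06% with an OR gene or pseudogene in the partner, and 52 and 14 joining 2 OR promoters; at 10, 92 genes had a call and the median distance was 2937 kb. Leaving out 1 replicate, 25.3% to 26.2% were in both of the others, with a median of 5.00 to 6.00 contacts per fragment, 3.33% to 3.60% joining different chromosomes, 2899 to 2937 kb, 18.0% to 19.6% inside a cluster and 9.67% to 10.6% with an OR partner. On the merged calls, where promoter fragments were defined anew, 135 genes had 1547 contacts, a median of 4.00 per fragment, 1.03% joining different chromosomes, 707 kb, 38.3% inside a cluster, 16.7% with an OR partner and 51 joining 2 OR promoters. In column 1 alone the medians were 7.00 contacts and 3003 kb, and with gene 5 prime ends alone 3.04% joined different chromosomes and the median was 2945 kb. Matching partners within 5 kb put 37.3% of contacts in all 3 replicates, and a cluster gap of 500 kb put 15.3% inside a cluster. Chosen after seeing the data, leaving out the OR13 cluster gave 9.47% in all 3, 7.00 contacts, 4.92%, 3890 kb, 24.2% and 13.3%, in the same order, the merged calls without that cluster gave 332 kb, the mean contacts per fragment of OR minus other promoters turned from 2.55 to -0.434 without it, the share joining different chromosomes of OR minus other promoters went from 0.180 to 1.68 percentage points, and leaving out partners with near-identical copies gave 3.12% joining different chromosomes. Of the recomputed summary values 68 stayed within the replicates' spread (within 1.5 times for a count), 52 moved further and 1 changed sign, and of those of single contacts 36 stayed and 4 moved. The exact test cannot go below p = 0.25, so it says nothing of stability. No paired analysis was possible because there is only 1 group.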
